A study of Mus musculus with 30 samples.

Results

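Wild-type (WT) and Ticam2-/- (KO) mouse macrophages were compared after 2 h of lipopolysaccharide (LPS), with 3 libraries of each genotype out of 30 libraries in the series. The members were all genes of these 6 libraries, taken by their labels: 32361 gene IDs were counted and 15119 passed the filter on low counts. The macrophages were grown from the bone marrow of C57BL/6J WT or Ticam2-/- mice in medium with M-CSF from L929 cell supernatant. Each library held the cells of 1 animal, from 3 WT and 3 KO animals. The p-values rest on the spread between libraries of a group, estimated jointly over all 30 libraries and 10 groups. The labels do not say whether conditions share animals, and the fit treated all libraries as independent. Both groups received LPS at 10 ng/mL, a cell wall component of Gram-negative bacteria. Groups set beside them were untreated, or received LPS for 6 h or lipoteichoic acid (LTA), a cell wall component of Gram-positive bacteria, at 100 ng/mL for 2 h, again 3 libraries per genotype. Neither the age of the mice nor the part of Ticam2 that the allele removes is stated in the labels.

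Ticam2 encodes TRAM, the adaptor that carries TRIF to the LPS receptor TLR4. TLR4 signals from the cell surface through TIRAP and MyD88 to NF-kB and the MAP kinases, and from endosomes through TRAM and TRIF to the kinase TBK1 and the transcription factor IRF3, which switches on interferon-beta and a first set of antiviral genes. LTA is sensed chiefly by TLR2, which uses MyD88. The comparison asks which early LPS-regulated transcripts differ in cells without TRAM.

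Ticam2 itself was lower in the KO libraries, but less so than at other times. After 2 h of LPS the 3 WT libraries held 22, 18 and 28 counts of Ticam2, and those of the KO held 1, 14 and 7. In TMM-normalised CPM, the read share of a gene after scaling by library size, the WT libraries were at 13.5, 10.2 and 10.5 and those of the KO at 0.708, 5.01 and 3.78. The values did not overlap, yet 4 pairs of exact 95% Poisson intervals did: those of KO replicates 2 and 3, 2.74 to 8.40 and 1.52 to 7.78 CPM, each overlapped those of WT replicates 2 and 3, 6.07 to 16.2 and 6.97 to 15.2 CPM. The log2 fold change was -1.63 ± 0.33 (SE, n = 3 per group; edgeR adjusted p = 0.00018), against -4.01 in untreated cells and -3.80 after 6 h of LPS. It was -1.31 without KO replicate 1, -2.20 without KO replicate 2, -1.66 without KO replicate 3 and -3.97 without KO replicates 2 and 3. This smaller separation is a measured limit on the genotype labels of the 2 h libraries, and every direction below rests on those labels.

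The same held for Wdfy1 and Rab4a, looked at after their values were seen because the genotypes differed strongly in the deeper libraries. Wdfy1 stood at 12.9, 13.7 and 12.4 CPM in WT and 24.1, 23.6 and 25.9 CPM in KO with LPS for 2 h, a log2 fold change of 0.92 against 2.07 in untreated cells. Rab4a stood at 6.15, 3.41 and 5.62 CPM in WT and 5.66, 7.87 and 6.47 CPM in KO, and the groups overlapped. In untreated cells Rab4a was at 1.75 to 2.71 CPM in WT and 7.92 to 8.63 CPM in KO, with no overlap. Nnt, which has a second gene ID that can share its reads, had a log2 fold change of -0.02 with LPS for 2 h and 1.06 in untreated cells. What these values mean for the labels was not tested, so counts are also given without KO replicates 2 and 3, which were left out because of their higher Ticam2 counts. That choice by itself lowers Ticam2 in the KO, and it leaves 1 KO library, assumed to vary like the other groups. That fit tested 16771 genes and called fewer of them. Its list counts cannot be set against the shares of all genes given below, which belong to the main fit.

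**Figure D1:**
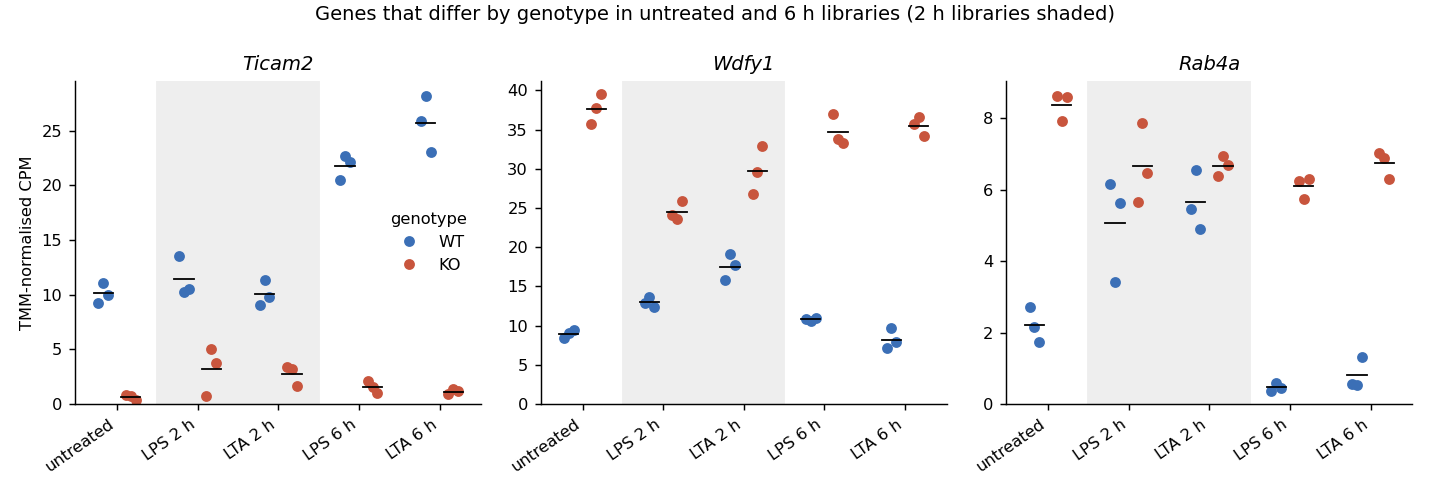
TMM-normalised CPM of Ticam2, Wdfy1 and Rab4a in each of the 30 libraries, by treatment and time, with WT in blue, KO in red and the mean of 3 as a line. The genotypes lie closer together in the shaded 2 h libraries than in the untreated and 6 h libraries, and for Rab4a with LPS for 2 h they overlap.

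The 6 libraries were shallow, with 1334784 to 2658329 counts, while the untreated and 6 h libraries held 10641070 to 13521660. A gene with 0 counts could still be present at up to 1.13 to 2.25 CPM by counting error (3 counts per library). Macrophage identity genes summed to 52400 to 52900 CPM in WT and 47000 to 49900 CPM in KO, and none of these 24 genes was at 0 in all 6 libraries. Summed markers of B cells were 7.69 to 11.1 CPM in WT and 3.39 to 5.99 CPM in KO, with Cd79a and Pax5 among the markers at 0. Endothelial markers summed to 15.4 to 24.2 and 8.65 to 14.2 CPM, erythroid and platelet markers to 1.38 to 1.92 and 3.39 to 3.75 CPM, and stromal markers to 203 to 263 and 206 to 310 CPM. Their part in the results was not tested, nor was that of the liver markers, at 53.4 to 56.0 CPM in WT and 56.5 to 74.9 CPM in KO.

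The 2 h libraries also stood apart from the others in more than depth. Erythroid and platelet markers summed to 0 to 4.01 CPM in the 12 libraries of 2 h and 5600 to 7740 CPM in the other 18. Stromal markers summed to 203 to 367 and 11.4 to 86.0 CPM, and liver markers to 49.3 to 92.4 and 20.8 to 29.3 CPM. Mitochondrially encoded genes took 4.85 to 6.87% of counts at 2 h and 2.62 to 3.92% in the others. No range overlapped between the sets, and comparisons of LPS for 2 h with untreated cells or LPS for 6 h cross them.

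After 2 h of LPS the KO differed from WT in both directions, with the IRF3 targets and many immediate early genes lower and most NF-kB family genes higher. Of 15119 genes, 2472 were called (16.4%): 1377 higher in KO (9.11%) and 1095 lower (7.24%). Those shares apply to every list count of the main fit with LPS for 2 h below. At a change of at least 2-fold the balance turned, with 235 genes higher (1.55%) and 362 lower (2.39%). Scaled by total counts instead of TMM, 913 were higher and 1485 lower. Without KO replicates 2 and 3, 641 were higher and 489 lower. In 4342 genes (28.7%) the 3 WT and 3 KO libraries did not overlap. In bulk RNA, fewer cells of a type and less RNA per cell cannot be told apart.

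**Figure D2:**
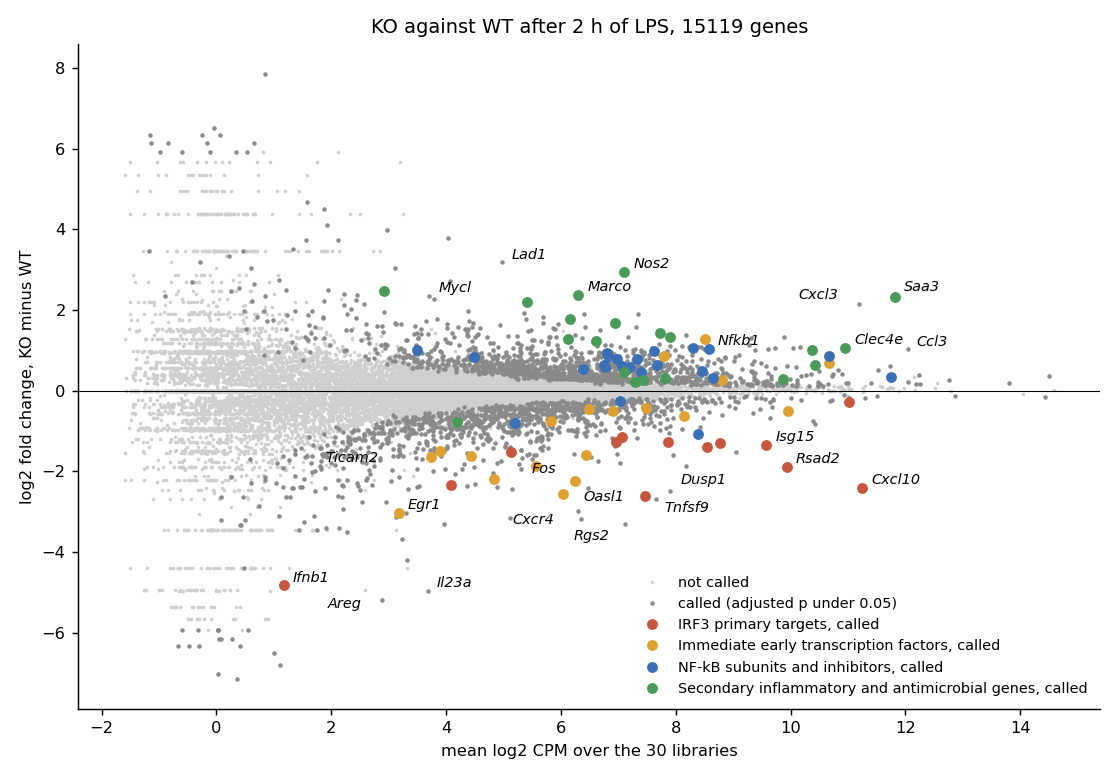
Mean log2 CPM over the 30 libraries (horizontal) against the log2 fold change KO minus WT after 2 h of LPS (vertical) for 15119 genes, dark grey where called. All 13 called IRF3 primary targets (red) lie below 0, as do 15 of 19 called immediate early factors (yellow), while 20 of 23 called NF-kB genes (blue) and 19 of 20 called secondary genes (green) lie above it.

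IRF3 primary targets are genes that IRF3 can switch on directly, without new protein synthesis, among them interferon-beta, antiviral effectors and T cell chemokines. The promoters of the 4 called lower with the smallest p, Cxcl10, Rsad2, Isg15 and Oasl1, are shown with those of Il6 and Il1b, cytokine genes with little or no change. They are RefSeq promoters on GRCm38.p6, 250 bases up to the start, 5′ to 3′ on the gene's strand. Capitals mark matches on either strand to the core of the interferon response element that IRF proteins bind (GAAA, any 2 bases, GAAA) or to a reduced NF-kB site (GGGA, any 4 bases, CC); in Cxcl10 the first match and in Rsad2 the first match are of the interferon core and the later ones of the NF-kB site, in Isg15 3 overlapping matches are all of the interferon core, and in Oasl1 and Il6 all are of the NF-kB site.
Cxcl10, chr5:92348890-92349139, minus strand: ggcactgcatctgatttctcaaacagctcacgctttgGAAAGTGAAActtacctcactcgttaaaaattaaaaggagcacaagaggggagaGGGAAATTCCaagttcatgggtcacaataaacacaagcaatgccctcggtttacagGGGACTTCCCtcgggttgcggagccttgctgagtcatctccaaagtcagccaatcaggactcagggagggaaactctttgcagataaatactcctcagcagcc
Rsad2, chr12:26456453-26456702, minus strand: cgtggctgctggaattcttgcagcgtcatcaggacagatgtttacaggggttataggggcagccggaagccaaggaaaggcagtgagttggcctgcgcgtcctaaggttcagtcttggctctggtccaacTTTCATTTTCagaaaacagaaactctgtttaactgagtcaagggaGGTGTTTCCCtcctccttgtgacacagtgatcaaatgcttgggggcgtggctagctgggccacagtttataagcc
Isg15, chr4:156200819-156201068, minus strand: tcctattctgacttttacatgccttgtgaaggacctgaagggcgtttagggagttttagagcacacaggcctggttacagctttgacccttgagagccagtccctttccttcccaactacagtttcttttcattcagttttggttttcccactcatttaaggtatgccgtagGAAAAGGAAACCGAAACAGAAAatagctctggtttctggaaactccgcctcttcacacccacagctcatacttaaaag
Oasl1, chr5:114922990-114923239, plus strand: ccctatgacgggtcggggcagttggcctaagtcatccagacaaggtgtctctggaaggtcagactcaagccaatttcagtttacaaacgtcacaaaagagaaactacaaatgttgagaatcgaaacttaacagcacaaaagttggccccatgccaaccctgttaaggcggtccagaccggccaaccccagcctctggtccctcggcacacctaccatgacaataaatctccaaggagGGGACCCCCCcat
Il6, chr5:30012864-30013113, plus strand: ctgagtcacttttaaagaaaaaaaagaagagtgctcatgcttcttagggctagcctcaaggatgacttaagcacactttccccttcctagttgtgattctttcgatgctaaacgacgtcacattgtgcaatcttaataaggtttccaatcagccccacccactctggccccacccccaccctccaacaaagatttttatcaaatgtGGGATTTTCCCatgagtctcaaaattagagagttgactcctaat
Il1b, chr2:129371140-129371389, minus strand: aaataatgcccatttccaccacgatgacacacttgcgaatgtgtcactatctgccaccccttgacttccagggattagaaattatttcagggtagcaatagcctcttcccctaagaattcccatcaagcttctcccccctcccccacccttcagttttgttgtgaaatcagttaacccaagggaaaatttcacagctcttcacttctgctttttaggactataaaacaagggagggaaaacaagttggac

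In windows of 300 bases, 250 before and 50 after the start, the interferon core stood in 7 of the 12 IRF3 primary targets with a promoter in the table (58.3%) and in 0 of 20 NF-kB family genes. Of all 27025 promoters of that length, 3.49% held it, and of the 9803 of tested genes 3.44%. The NF-kB letters stood in 5 of the 12 (41.7%) and in 12 of the 20 (60.0%). They stood in 20.5% of all promoters and 26.1% of those of tested genes. A match is a run of letters, not a shown binding site, and Oasl1 held no interferon core in this window. Shares over the called genes are void, because only 78.1% of those called lower and 68.8% of all tested genes with a symbol had a promoter. The IRF3 and NF-kB lists had one for 85.7% and 80% of tested members, so their shares are incomplete as well.

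The IRF3 primary targets were lower in KO almost without exception. Of 15 listed, 14 were tested, and 13 were called lower and 0 higher, where 7.24% of all genes were called lower. Their median log2 fold change was -1.38, and that of all genes 0.01. Without KO replicates 2 and 3, 10 were called lower and 0 higher. The list had been chosen with earlier results of these data known.

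Cxcl10, a chemokine for activated T cells, stood at 1198, 1120 and 1217 CPM in WT and 223, 226 and 219 CPM in KO. No library of a genotype came near the other, and the level was 5.29-fold lower in KO (log2 fold change -2.40 ± 0.05, edgeR adjusted p = 2.6e-42). Rsad2, which encodes the antiviral enzyme viperin, was at 212, 225 and 201 CPM in WT and 50.3, 62.6 and 55.6 CPM in KO (-1.89 ± 0.08, adjusted p = 2.0e-27). Oasl1, a member of the oligoadenylate synthetase-like family, was at 65.2, 84.8 and 78.3 CPM in WT and 11.3, 12.5 and 13.5 CPM in KO (-2.61 ± 0.14). Isg15, the ubiquitin-like interferon-induced modifier, fell from 374, 409 and 370 CPM to 138, 155 and 155 CPM (-1.35 ± 0.06). In each of these 4 genes the WT and KO libraries were fully apart, as in 28.7% of all genes. These 4 were the called members with the smallest p, a choice that favours such separation.

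Ifit1, Ifit2 and Ifit3, whose products bind viral RNA or assemble with such proteins, fell by 1.30, 1.14 and 1.28 on the log2 scale. Ifit1 was at 167, 152 and 162 CPM in WT and 58.0, 71.1 and 62.6 CPM in KO. Ifit2 lost its call without KO replicate 2 (edgeR adjusted p = 0.060), and its change was -0.68 without KO replicates 2 and 3. Ifnb1, which encodes interferon-beta, was near the counting floor, with 5, 10 and 16 counts in the WT libraries against 1, 0 and 0 in those of the KO. That is a 31.1-fold difference with an exact 95% counting interval of 5.18 to 1.27e+03. Its fitted change, -4.82 ± 0.77 (edgeR adjusted p = 2.3e-06), depends on the prior count: it was -8.31 without KO replicate 1 and -3.998 without KO replicate 2, and the call ended without KO replicates 2 and 3 (adjusted p = 0.079). Ccl5, a chemokine for T cells and monocytes, changed least of the called members, from 577, 502 and 537 CPM to 450, 440 and 433 CPM (-0.29 ± 0.05). Isg20, an exonuclease gene, was the 1 tested member not called, at 10.5 to 17.6 CPM in WT and 9.65 to 11.3 CPM in KO.

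Other interferon-stimulated genes were lower by less. Of 50 tested, 26 were called lower and 2 higher, with a median of -0.40, where 7.24% of all genes were lower and 9.11% higher. Without KO replicates 2 and 3, 14 were called lower and 1 higher. Mx2, a dynamin-like antiviral GTPase, was at 12.9, 12.5 and 9.37 CPM in WT and 1.42, 6.08 and 4.86 CPM in KO (-1.28 ± 0.30). Trim25, a ubiquitin ligase of RNA sensing, fell by 0.92 ± 0.09 and Rnf213 by 0.87 ± 0.09 on the log2 scale. Trim21, an antibody-binding ubiquitin ligase, went the other way, from 33.2, 26.7 and 30.0 CPM to 53.8, 51.1 and 46.9 CPM (0.75 ± 0.13). Neither group of libraries overlapped the other for Trim21. Before LPS, 40 of these 50 genes were called lower in KO and 0 higher, with a median of -0.30, where 7.47% of all genes were lower. The difference from untreated cells, which crosses the library sets, was called lower in 7, higher in 6 and in neither direction in 37. For all genes that difference was called lower in 7.9% and higher in 10%, near these counts.

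Among 15 interferon-inducible GTPases, 5 were called lower and 0 higher (2 and 0 without KO replicates 2 and 3), with Irgm1 at -0.72 ± 0.10 and Irgm2 at -1.04 ± 0.22. Tgtp1 and Tgtp2, also called lower, are near-identical copies that can share counts, and the call of Tgtp2 ended without WT replicate 3. In untreated cells 10 of the 15 GTPase genes were called lower in KO and 0 higher. Their median was -0.40 untreated and -0.29 with LPS for 2 h. Of 16 genes of interferon receptors and JAK-STAT signalling, 5 were lower and 4 higher (4 and 3 without KO replicates 2 and 3). Irf7, the interferon-amplifying factor, stood at 147, 167 and 147 CPM in WT and 130, 99.4 and 110 CPM in KO (-0.47 ± 0.07), a call that ended without KO replicates 2 and 3. Irf1 fell by 0.93 ± 0.06 and Irf8 by 0.97 ± 0.08 on the log2 scale, while the kinase gene Jak2 rose by 0.94 ± 0.11 and the receptor gene Ifngr2 by 0.59 ± 0.07.

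Immediate early transcription factors, which cells switch on within minutes of a signal, were lower more often than higher. Of 30 tested, 15 were called lower, 4 higher and 11 in neither direction, with a median of -0.51, and 13 and 3 without KO replicates 2 and 3. Egr1, a zinc finger factor downstream of ERK, was at 25.2, 26.7 and 25.5 CPM in WT and 2.12, 3.22 and 3.78 CPM in KO (-3.03 ± 0.24, edgeR adjusted p = 2.2e-15). Fos, a subunit of AP-1, was at 45.5, 43.8 and 45.4 CPM in WT and 9.91, 10.7 and 7.55 CPM in KO (-2.23 ± 0.17). Its partner Jun fell by 1.59 ± 0.10 and Csrnp1 by 2.55 ± 0.12 on the log2 scale. For all of these the genotypes were apart in every library, as in 28.7% of all genes. Jun and Csrnp1 were picked by smallest p, which favours such separation.

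Klf2, a factor that restrains macrophage activation, was at 46.7, 52.4 and 46.9 CPM in WT and 13.5, 12.2 and 15.1 CPM in KO (-1.86 ± 0.14). The C/EBP factors of acute phase genes went the other way. Cebpd stood at 188, 179 and 181 CPM in WT and 449, 432 and 453 CPM in KO (1.28 ± 0.06), and Cebpb rose by 0.68 ± 0.05.

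Genes that shut signalling down were split. Of 30 MAP kinase phosphatases and feedback inhibitors, 11 were called lower and 8 higher, with a median of -0.37, and 11 and 7 without KO replicates 2 and 3. Dusp1, the phosphatase of p38 and JNK, stood at 206, 200 and 189 CPM in WT and 29.0, 34.7 and 39.9 CPM in KO (-2.50 ± 0.09, edgeR adjusted p = 6.3e-30). Dusp5 and Dusp6, phosphatases of ERK, fell by 3.15 ± 0.26 and 2.38 ± 0.25 on the log2 scale. Zfp36, which encodes the mRNA decay factor tristetraprolin, was at 649, 660 and 703 CPM in WT and 210, 242 and 249 CPM in KO (-1.51 ± 0.05). Its relative Zfp36l2 fell by 2.99 ± 0.13, from 71.7 to 79.3 CPM down to 8.63 to 10.0 CPM. By contrast Zc3h12a, which encodes the RNase regnase-1, rose by 1.13 ± 0.07, from 90.0 to 96.2 CPM up to 198 to 208 CPM.

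Cytokine genes did not move as a block. The shares of all genes were 9.11% called higher and 7.24% called lower. Of 27 tested, 9 were called lower and 4 higher, with a median of -0.23, and 6 and 2 without KO replicates 2 and 3. Tnf, the early inflammatory cytokine, was at 2048, 2142 and 2180 CPM in WT and 1765, 1818 and 1837 CPM in KO (-0.23 ± 0.04). Il6 was at 86.7, 74.5 and 83.6 CPM in WT and 91.3, 93.0 and 81.5 CPM in KO. The groups overlapped, and the change of 0.12 ± 0.09 was not called (edgeR adjusted p = 0.42). Il1b was slightly higher, at 1570, 1634 and 1599 CPM in WT and 1814, 1871 and 1855 CPM in KO (0.21 ± 0.04), and its call ended without KO replicates 2 and 3 (edgeR adjusted p = 0.056).

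Other cytokine genes fell further. Tnfsf9, the ligand of the T cell receptor 4-1BB, was at 390, 456 and 441 CPM in WT and 63.7, 61.1 and 77.7 CPM in KO (-2.68 ± 0.07, edgeR adjusted p = 3.8e-35). Il1a was at 184, 184 and 175 CPM in WT and 108, 96.9 and 105 CPM in KO (-0.82 ± 0.06). Il12b, the shared subunit of interleukins 12 and 23, fell by 0.81 ± 0.15 on the log2 scale, a call that ended without KO replicates 2 and 3. Il23a, which encodes the p19 chain of interleukin 23, had 7, 13 and 14 counts in the WT libraries against 0, 0 and 1 in those of the KO, a 34.1-fold difference with a counting interval of 5.71 to 1.38e+03. Csf1, the macrophage growth factor, was higher, at 42.4, 34.7 and 40.5 CPM in WT and 63.0, 86.9 and 69.1 CPM in KO. Csf2 was called lower (-1.19 ± 0.26), a call that ended without WT replicate 3 (edgeR adjusted p = 0.076). Its change was -1.05 without KO replicates 2 and 3.

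Of 17 chemokine genes outside the IRF3 list, 9 were called higher and 4 lower, with a median of 0.21, and 7 and 3 without KO replicates 2 and 3. For all genes the shares were 9.11% higher and 7.24% lower. Cxcl3, a neutrophil chemokine, was at 333, 311 and 367 CPM in WT and 1576, 1423 and 1506 CPM in KO (2.15 ± 0.05, edgeR adjusted p = 3.6e-37). Its neighbours in function split: Cxcl2 rose by 0.25 ± 0.04 and Cxcl1 fell by 0.67 ± 0.06 on the log2 scale. Ccl3 was at 1389, 1307 and 1415 CPM in WT and 2787, 2798 and 2772 CPM in KO (1.02 ± 0.04). Ccl2, the monocyte chemokine, was at 1022, 988 and 943 CPM in WT and 624, 561 and 584 CPM in KO (-0.74 ± 0.05). Ccl4, a relative of Ccl3, overlapped between genotypes, at 2876 to 3102 CPM in WT and 2820 to 3148 CPM in KO, and was not called.

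**Figure D3:**
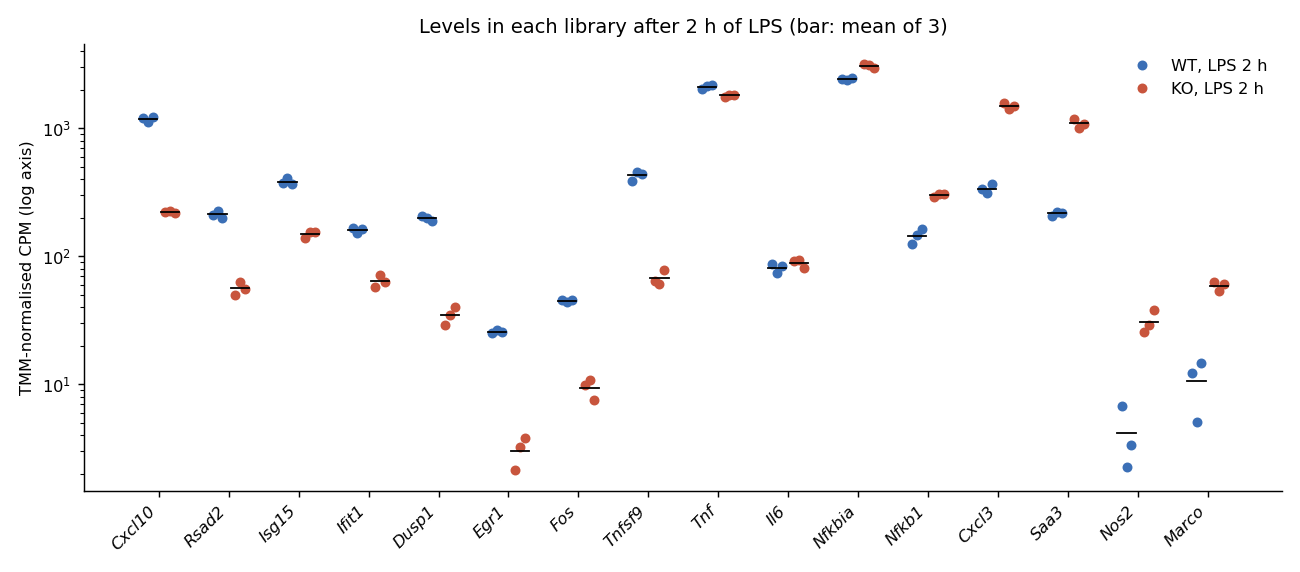
TMM-normalised CPM (log axis) of 16 genes in each WT (blue) and KO (red) library after 2 h of LPS, with the mean of 3 as a line. Only Il6 overlaps between the genotypes. Cxcl10 to Tnfsf9 and Tnf lie lower in KO and Nfkbia to Marco higher.

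NF-kB subunits and their inhibitors were higher in KO as a family. Of 25 tested, 20 were called higher and 3 lower, where 9.11% of all genes were called higher. The median was 0.61, and 16 were higher and 1 lower without KO replicates 2 and 3. Nfkb1, the p105 and p50 subunit, was at 126, 146 and 163 CPM in WT and 289, 305 and 309 CPM in KO (1.04 ± 0.06, edgeR adjusted p = 8.4e-20). Tnip1, an inhibitor that binds A20, was at 256, 268 and 263 CPM in WT and 500, 564 and 577 CPM in KO (1.06 ± 0.05). Nfkbia, which encodes the inhibitor IkB-alpha, was at 2417, 2392 and 2477 CPM in WT and 3166, 3141 and 2983 CPM in KO (0.35 ± 0.04). Rela, Rel, Relb and Nfkb2 rose by 0.59, 0.63, 0.86 and 0.99.

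The exceptions were Tnfaip3, Nfkbid and Tnfaip8. Tnfaip3, which encodes the deubiquitinase A20, was at 349, 354 and 352 CPM in WT and 164, 175 and 162 CPM in KO (-1.07 ± 0.06, edgeR adjusted p = 1.7e-22). Nfkbid, an atypical IkB, fell by 0.80 ± 0.13 and Tnfaip8 by 0.25.

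Secondary inflammatory and antimicrobial genes, many of them NF-kB targets, were higher in KO where called, with 1 exception. Of 37 tested, 19 were called higher, 1 lower and 17 in neither direction, with a median of 0.33, and 15 and 1 without KO replicates 2 and 3. Saa3, an acute phase protein of macrophages, was at 207, 223 and 219 CPM in WT and 1194, 1013 and 1080 CPM in KO (2.33 ± 0.06, edgeR adjusted p = 3.6e-31). Nos2, the inducible nitric oxide synthase, was at 6.76, 2.28 and 3.37 CPM in WT and 25.5, 29.0 and 37.8 CPM in KO (2.95 ± 0.24). Marco, a scavenger receptor for bacteria, was at 12.3, 5.12 and 14.6 CPM in WT and 63.0, 53.3 and 61.0 CPM in KO (2.37 ± 0.16). Clec4e, the receptor Mincle, rose from 924 to 1020 CPM up to 1938 to 2131 CPM. Acod1, which makes itaconate, rose by 0.63 ± 0.04, while Ptgs2, the inducible cyclooxygenase, was at 390 to 433 CPM in WT and 430 to 472 CPM in KO and was not called (adjusted p = 0.082).

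The receptors moved apart from each other. Tlr4 was at 56.6, 42.7 and 57.4 CPM in WT and 22.7, 21.8 and 24.8 CPM in KO (-1.20 ± 0.13, edgeR adjusted p = 1.1e-10). Tlr2 was at 199, 171 and 204 CPM in WT and 397, 418 and 402 CPM in KO (1.08 ± 0.06), and its partner Tlr1 rose by 1.33 ± 0.11. The LPS co-receptor Cd14 rose by 0.62 ± 0.04 and the adaptors Ticam1, which encodes TRIF, and Myd88 by 1.00 ± 0.15 and 0.50 ± 0.08. Among all genes, 9.11% were called higher and 7.24% lower. Over the 13 tested genes of the receptor complex and adaptors, 6 were called higher and 4 lower, Ticam2 included (6 and 3 without KO replicates 2 and 3).

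Of 20 kinases and ubiquitin ligases of the TRIF and MyD88 arms, 7 were called higher and 1 lower (4 and 1 without KO replicates 2 and 3). Again 9.11% of all genes were called higher and 7.24% lower. The single fall in this list was in Peli1, a ubiquitin ligase, at 210, 217 and 213 CPM in WT and 44.6, 62.9 and 62.6 CPM in KO (-1.87 ± 0.08). Irak2 and the inhibitory Irak3 rose by 1.10 ± 0.08 and 1.49 ± 0.13. Tbk1 was at 47.2 to 56.6 CPM in WT and 41.1 to 56.1 CPM in KO, and Irf3 at 30.0 to 37.5 and 37.2 to 42.5 CPM, with neither called.

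Outside the signalling genes, targets of the stress factor NRF2 were higher, with 11 of 16 called higher, 0 lower, a median of 0.66, and 8 without KO replicates 2 and 3. Sqstm1, the autophagy receptor p62, was at 505, 559 and 567 CPM in WT and 1311, 1439 and 1360 CPM in KO (1.33 ± 0.05, edgeR adjusted p = 9.7e-30). Glutathione and thioredoxin genes rose with it, Gclm by 0.88 ± 0.06 and Txnrd1 by 0.84 ± 0.05. Among 22 glycolysis and hypoxia genes 8 were higher and 1 lower. The 8 became 3 with total counts as the scale, 3 in the fit of the 6 libraries and 4 in DESeq2. Leaving out WT replicate 3 gave 4. Among 22 cholesterol biosynthesis genes 6 were higher and 0 lower. Fewer members of both lists were called higher without KO replicates 2 and 3, a fit in which fewer of all genes were called.

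MHC class II genes were lower, 5 of 8 with 0 higher, also without KO replicates 2 and 3. Cd74, the invariant chain, was at 665, 609 and 646 CPM in WT and 425, 412 and 421 CPM in KO (-0.61 ± 0.05). Over all genes, 7.24% were called lower and 9.11% higher with LPS for 2 h, and 7.47% lower in untreated cells. In untreated cells 8 of the 8 class II genes were lower in KO, with a median of -0.93, against -0.39 with LPS for 2 h. The difference from untreated cells, which crosses the library sets, was called higher in 4 and lower in 0. For all genes it was called higher in 10% and lower in 7.9%. Among 17 MHC class I genes, 3 were higher and 1 lower with LPS for 2 h, counts too small to set apart from the shares of all genes. Co-stimulation genes were higher where called, 4 of 14, with Cd40 at 95.3, 97.9 and 103 CPM in WT and 153, 146 and 160 CPM in KO (0.62 ± 0.07) and the adhesion gene Icam1 at 0.89 ± 0.05. Of 30 cell cycle genes 13 were lower and 0 higher, and 5 were lower without KO replicates 2 and 3. The S phase gene Rrm2 was at 101, 101 and 104 CPM in WT and 63.7, 61.1 and 62.6 CPM in KO (-0.72 ± 0.08).

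Among 24 macrophage identity genes, 5 were higher and 6 lower (3 and 3 without KO replicates 2 and 3). Spi1, which encodes PU.1, was higher by 0.70 ± 0.06 (edgeR adjusted p = 1.7e-14), and Csf1r, the M-CSF receptor, was at 957 to 1034 CPM in WT and 999 to 1066 CPM in KO. Of 12 genes of cholesterol efflux and LXR targets 2 were lower and 0 higher, Abcg1 by 1.09 ± 0.10 and Apoe by 0.55 ± 0.04 on the log2 scale. As 7.24% of all genes were called lower and 9.11% higher, so small a count cannot be set apart from those shares. Of 13 mitochondrially encoded genes 0 were called in either direction. Ribosomal protein genes were higher in 8 of 30 and lower in 0, but by at most 0.21, and the count was 1 higher and 1 lower with total counts as the scale, 2 higher in the fit of the 6 libraries, 4 without WT replicate 2 and 5 without KO replicate 1.

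**Figure D4:**
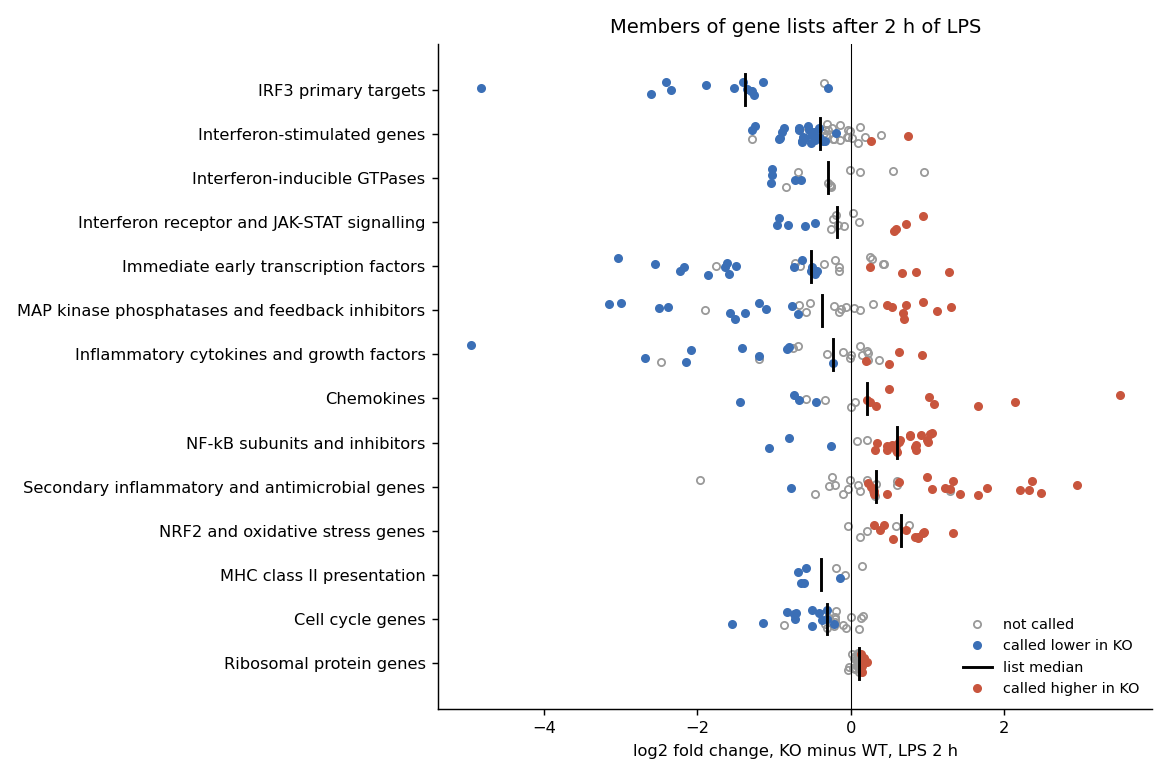
Log2 fold change KO minus WT after 2 h of LPS for the tested members of 14 gene lists, filled where called (red higher, blue lower), with the list median as a bar. The IRF3 primary targets have the lowest median of these lists, -1.38, and the NRF2 genes the highest, 0.66.

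The largest changes by the naming rule included receptors and signalling genes outside the lists. Rgs2, a regulator of G protein signalling, was at 204, 189 and 184 CPM in WT and 18.4, 20.7 and 18.3 CPM in KO (-3.30 ± 0.10, edgeR adjusted p = 6.2e-32). Cxcr4, the chemokine receptor for CXCL12, was at 94.1, 90.5 and 101 CPM in WT and 12.03, 10.01 and 10.25 CPM in KO (-3.18 ± 0.14). Other G protein-coupled receptors fell too: Gpr183, an oxysterol receptor, by 3.14 ± 0.35, Gpr146 by 3.30 ± 0.38, Lpar6 by 3.67 ± 0.53 and the cannabinoid receptor gene Cnr2 by 3.50 ± 0.60 on the log2 scale. Cnr2 rested on 35 counts in WT and 3 in KO. Areg, the EGF receptor ligand amphiregulin, had 18, 20 and 39 counts in the WT libraries against 0, 1 and 1 in those of the KO, a 38.6-fold difference with a counting interval of 10.3 to 324. Rnf144b, with 22 counts in WT and 2 in KO, was 11-fold apart (2.71 to 96.7).

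On the other side, Zfp811, Ppfia3 and Lad1 had the largest rises, of 3.99 ± 0.43, 3.79 ± 0.32 and 3.18 ± 0.30. Lad1, which encodes ladinin, was at 1.84, 2.85 and 1.13 CPM in WT and 14.87, 15.02 and 20.5 CPM in KO. Mycl, a MYC family factor, was at 4.92, 6.83 and 7.12 CPM in WT and 33.3, 31.8 and 34.5 CPM in KO (2.35 ± 0.18). Pim2, a survival kinase, rose by 2.71 ± 0.25 and Mmp9, a matrix protease, by 2.48 ± 0.57. Cd247 and the pseudogene Rpl17-ps10 rested on 3 and 1 counts over the WT libraries, against 16 and 9 over those of the KO. The pseudogene can share reads with its parent. Their counting intervals were 1.52 to 28.5-fold and 1.24 to 394-fold, and the calls of both ended without WT replicate 1, as those of Mmp9 and Rnf144b did without KO replicates 2 and 3.

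Most of this difference between genotypes was also present with LTA for 2 h. That comparison shares no library with the one for LPS, but the labels do not say whether it shares animals. Of the 2472 genes called with LPS, 2391 (96.7%) had the same direction with LTA, 1431 (57.9%) were called there in that direction and 0 in the other, where 13% of all genes were called with LTA (7.83% higher, 5.21% lower). The 1431 are 72.6% of the 1972 called with LTA. Over the 4623 genes whose log2 CPM averaged 5 or more, the fold changes had r = 0.881, a description across genes, which are not independent, in libraries of the same shallow set. Cxcl3 rose by 1.91, Nfkb1 by 0.91, Marco by 2.42 and Sqstm1 by 1.33 with LTA, and Rgs2 fell by 2.90 and Tnfsf9 by 2.60. By list, NF-kB genes were higher in 20 and lower in 2 of 25 with LTA, and immediate early factors higher in 4 and lower in 13 of 30, close to their counts with LPS. Of the IRF3 primary targets 7 of 14 were lower with LTA, with a median of -0.65, and 0 higher.

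The difference between ligands was called in 19 genes (0.126%), 18 more negative with LPS (0.119%) and 1 more positive (0.00661%). Of the 18, 6 were IRF3 primary targets (Rsad2, Oasl1, Cxcl10, Ifit1, Isg15 and Ccl5), and the rest included Fos, Atf3, Dusp1, Zfp36, Peli1, Tnf and the chemokine genes Ccl2, Ccl3, Ccl4 and Ccl7. For Ifnb1 the difference was -3.10 and was not called. Without KO replicates 2 and 3, 11 genes were more negative with LPS and 1 more positive. The 1 gene in the other direction was Saa3, with a difference of 0.70 ± 0.09.

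In Cxcl10, Rsad2, Ifit1 and Dusp1 the WT libraries differed by ligand more than the KO libraries did. The other genes were not compared in this way. Cxcl10 in WT was at 1120 to 1217 CPM with LPS and 487 to 502 CPM with LTA, and in KO at 219 to 226 CPM with LPS and 209 to 233 CPM with LTA. The difference of the log2 fold changes was -1.25 ± 0.07 (edgeR adjusted p = 1.7e-20). Rsad2 in WT was at 201 to 225 CPM with LPS and 64.8 to 78.2 CPM with LTA, and in KO at 50.3 to 62.6 and 56.4 to 60.8 CPM (difference -1.57 ± 0.12, adjusted p = 4.4e-14). Ifit1 in WT was at 152 to 167 CPM with LPS and 66.8 to 71.2 CPM with LTA, while the KO libraries held 58.0 to 71.1 and 61.2 to 62.9 CPM (difference -1.13 ± 0.11). For all 3 genes the KO libraries of both ligands overlapped and the WT libraries did not. Dusp1 in KO did not overlap between ligands, at 29.0 to 39.9 CPM with LPS and 23.4 to 26.4 CPM with LTA, against 189 to 206 and 69.8 to 75.2 CPM in WT (difference -0.98 ± 0.16).

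**Figure D5:**
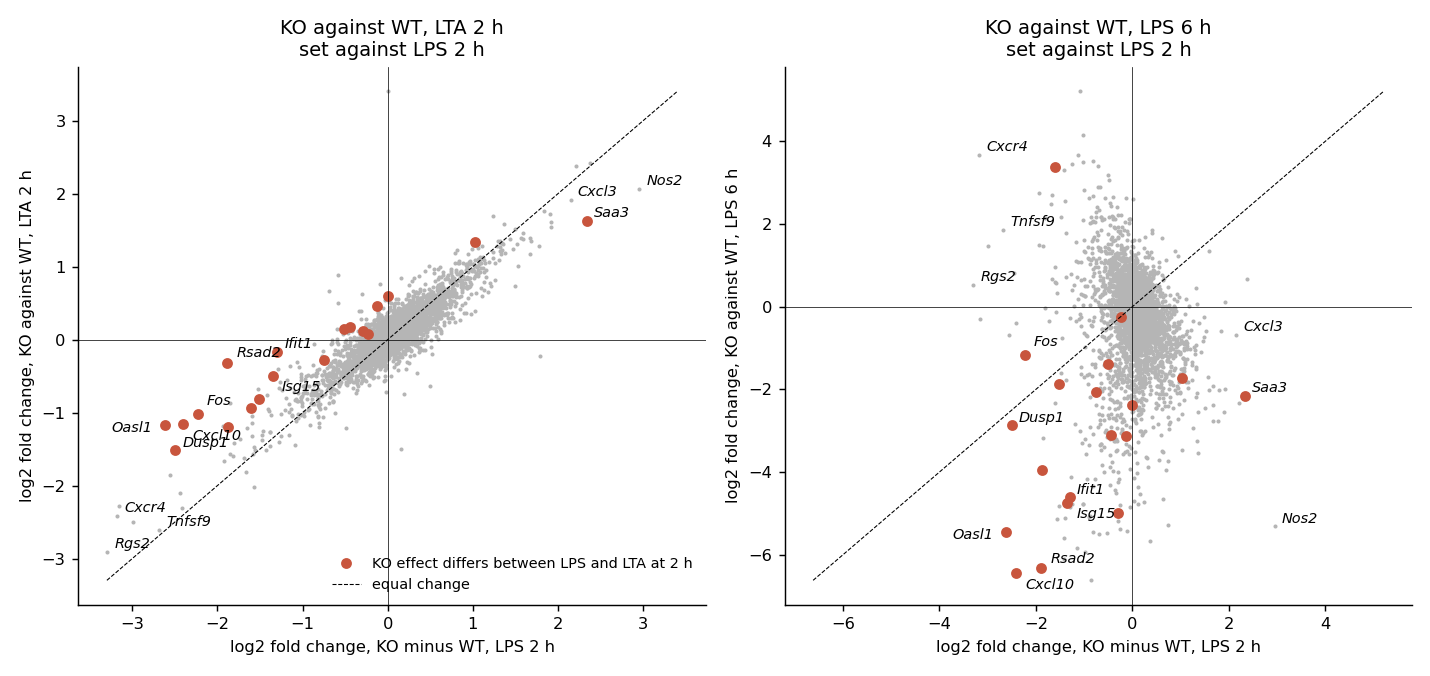
Log2 fold change KO minus WT after 2 h of LPS (horizontal) against that with LTA for 2 h (left) and LPS for 6 h (right), for genes whose log2 CPM averaged 5 or more, with the genes whose KO effect differed between ligands at 2 h in red and equal change dashed. Genes follow the dashed line on the left (r = 0.881) but not on the right (r = -0.148), where Nos2 and Cxcl3 are higher in KO at 2 h and lower at 6 h.

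Against LPS for 6 h, many changes had the opposite sign. Of the 2472 genes called at 2 h, 521 (21.1%) were called in the same direction at 6 h and 1595 (64.5%) in the opposite direction, where 63.3% of all genes were called at 6 h (32.7% higher, 30.6% lower). Of the 1595, 924 were higher in KO at 2 h and lower at 6 h and 671 the reverse, and in all 1595 the difference between the times was itself called. The difference was called in 6879 genes (45.5%), 3551 higher (23.5%) and 3328 lower (22%). With total counts as the scale this became 1685 higher and 6802 lower, with the median of all genes moved from 0.05 to -0.56, so the split of this count depends on the scale. Time cannot be told apart from the library set here: depth differs, erythroid and platelet markers summed to 1.38 to 3.75 CPM with LPS for 2 h and 5600 to 7740 CPM with LPS for 6 h, stromal markers to 203 to 310 and 18.4 to 53.5 CPM, and the mitochondrial share was 4.85 to 5.99% and 2.62 to 3.28%. The difference was called higher in 2378 genes and lower in 2490 without KO replicates 2 and 3.

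The IRF3 primary targets kept their sign: 13 were lower at 2 h and also at 6 h, where all 14 tested were lower with a median of -5.00. In WT, Cxcl10 was at 13900 to 14950 CPM after 6 h and in KO at 162 to 171 CPM. NF-kB genes changed sign, with 19 of the 20 that were higher at 2 h lower at 6 h. Nfkb1 stood at 126 to 163 CPM in WT and 289 to 309 CPM in KO at 2 h, and at 934 to 1021 CPM in WT and 304 to 308 CPM in KO at 6 h. The KO levels of Nfkb1 at both times lay between 289 and 309 CPM, while its WT levels did not overlap. Nos2 was 25.5 to 37.8 CPM in KO at 2 h and 18.5 to 21.4 CPM at 6 h, and in WT 2.28 to 6.76 and 751 to 798 CPM. In the other direction, Cxcr4 was lower in KO at 2 h and higher at 6 h, where WT held 6.45 to 7.81 CPM and KO 88.0 to 94.2 CPM. Tnfsf9 likewise stood at 128 to 140 CPM in WT and 463 to 492 CPM in KO at 6 h.

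In untreated cells, 223 of the 2472 genes (9.02%) were called in the same direction and 570 (23.1%) in the opposite one, with 13.4% of all genes called there (5.97% higher, 7.47% lower). The difference from untreated cells was called in 2708 genes (17.9%), 1513 higher (10%) and 1195 lower (7.9%), or 854 and 602 without KO replicates 2 and 3. The IRF3 primary targets were lower in KO before LPS as well, 11 of 14 with 0 higher, with Cxcl10 at -0.70 and Isg15 at -0.81. NF-kB genes were lower in 13 of 25 and higher in 0 untreated, against 20 higher after 2 h of LPS. In WT cells, 45% of all genes differed between LPS for 2 h and no treatment (19.5% higher, 25.5% lower), and 21 of the 25 NF-kB genes were higher with LPS and 2 lower. LPS and library set cannot be told apart in these contrasts: the untreated libraries are deeper, and their erythroid and platelet markers summed to 5760 to 6580 CPM against 1.38 to 3.75 CPM with LPS for 2 h, their stromal markers to 11.4 to 14.4 against 203 to 310 CPM, and their liver markers to 20.9 to 23.1 against 53.4 to 74.9 CPM.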

How the data were processed

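RNA was sequenced from total RNA of 30 macrophage libraries, and groups were taken from the labels. The authors deposited expected counts per gene for 32361 Ensembl IDs; their processing notes list STAR 2.7.11, Subread 2.1.1 with featureCounts, fastp 0.24.0, and SAMtools 1.22.1, on builds GRCm38 and mm10. The sources used here give neither roles, strand setting nor annotation release. A part, 25.2%, of the nonzero values had decimals, so reads of overlapping or near-identical genes can be split, and values were rounded. IDs without a symbol (6057) held 1.32 to 3.88% of counts. The labels' protocol gives 2 or 6 h of stimulation but a harvest after 6 h; the 12 libraries labelled 2 h were taken as such.

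The fit took the counts of all 30 libraries (edgeR 4.0.16, R 4.3.3): filterByExpr (minimum count 10), TMM, robust quasi-likelihood, 1 coefficient per group, 20 residual degrees of freedom, and Benjamini-Hochberg adjustment over 15119 genes at 0.05. Standard errors are the absolute log2 fold change over the square root of F. Fold changes keep edgeR's default prior count, and non-overlap was judged on log2 CPM with a prior count of 2. Symbols came from GENCODE M21 (26304 IDs). The fit was tested on simulated counts. No pairing by replicate number was seen (r = -0.011, -0.058 and 0.065 between same-numbered WT and KO libraries over 4623 genes). Counting error is large in these shallow libraries, so the check cannot exclude pairing. Pairing of libraries across treatments was not tested. Pairs of replicates differed beyond sampling noise (chi-square per degree of freedom 1.11 to 2.38), so each counted as 1 sample. WT pairs were at 1.11 to 1.25 and KO replicates 1 and 3 at 1.36. KO replicate 2, the KO library with the most Ticam2 counts, was at 2.38 with replicate 1 and 1.93 with replicate 3.

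Genes named were 30 preset genes, the 10 largest rises and falls among called genes without overlap, for each list up to 4 called members by smallest p, and the 3 largest differences in each direction per contrast, beyond a mean log2 CPM of 2 where named by size. Other members named beside a list's count, Wdfy1 and Rab4a were chosen after their values were seen. The members and the 32 gene lists were chosen with earlier results of these data known. Promoters were matched by symbol in the RefSeq table, and the first listed was used. Alternatives were other scalings, filters, sample sets, a replicate block, DESeq2 1.42.0 and leaving out libraries. Some genes are not reported here.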

Additional observations from a re-analysis of the deposited data

Results flagged for a closer look

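The KO effect (log2 fold change, KO minus WT) differed between LPS for 2 h and another condition, by edgeR's test of the difference, in 49 cases among the genes named by rule. The values are the effect with LPS for 2 h minus that in the other condition. Against LTA for 2 h the difference was -1.57 for Rsad2, -1.45 for Oasl1, -1.25 for Cxcl10, -1.21 for Fos, -1.13 for Ifit1, -0.98 for Dusp1, -0.84 for Isg15, -0.41 for Ccl5, -0.31 for Tnf and 0.70 for Saa3.

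Against LPS for 6 h, it was positive for interferon-related genes: 4.03 for Cxcl10, 4.71 for Ccl5, 3.31 for Ifit1, 4.68 for Ifit2, 3.55 for Ifit3, 3.40 for Isg15, 4.45 for Rsad2 and 2.74 for Irf7. Among cytokine and chemokine genes it was 4.89 for Il6, 3.52 for Il1a, 3.31 for Il1b, 4.17 for Il10, 4.64 for Il12b, 6.04 for Il27, -1.08 for Csf2, 0.97 for Cxcl1 and 1.34 for Cxcl2. Among regulators and effectors it was 1.08 for Nfkbia, 0.56 for Tnfaip3, -2.45 for Egr1, -1.07 for Fos, 0.37 for Dusp1, 3.40 for Ptgs2, 2.83 for Acod1, 8.27 for Nos2 and 4.10 for Cd40. Ticam2 differed by 2.17 and Nnt by -1.10. The largest by rule were also 8.21 for Lipg and 7.01 for Tnc, both at the counting floor in the LPS 2 h libraries, and -7.05 for Cdca7, -7.0 for Cnr2 and -6.86 for Cxcr4.

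Against untreated cells, the largest were 4.32 for Zfp811, 3.94 for Lad1, 3.84 for Mycl, -5.24 for Il23a, -3.77 for Rnf144b and -3.70 for Cnr2. Treatment and time cannot be told apart from the library set in the values against LPS for 6 h and untreated cells: the untreated and 6 h libraries are deeper, with erythroid and platelet markers at 5600 to 7740 CPM against 0 to 4.01 CPM at 2 h, stromal markers at 11.4 to 86.0 against 203 to 367 CPM, and a mitochondrial share of 2.62 to 3.92% against 4.85 to 6.87%.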

How the results depend on the processing

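With total counts as the scale, 913 genes were higher in KO after 2 h of LPS, and the difference from LPS for 6 h was called higher in 1685 and lower in 6802. No filter gave 2 genes with a more positive KO effect with LPS than with LTA. Without KO replicates 2 and 3, chosen after seeing the data, 641 were higher and 489 lower, 101 of 128 named calls were kept, and the difference was called lower in 11 genes against LTA and higher in 854 and lower in 602 against untreated cells. Leaving out 1 library gave 1067 to 1276 higher and 802 to 974 lower. For the differences it gave 1 to 2 higher and 16 to 20 lower against LTA, 3084 to 3524 and 2934 to 3363 against LPS for 6 h, and 1211 to 1450 and 935 to 1197 against untreated cells. With the replicate block, where pairing by number was not shown, 1334 were higher and 1077 lower, and 127 of the 128 named calls were kept. More genes were lower than higher in the fit of the 12 libraries of 2 h (1141 higher, 1255 lower), in that of the 6 libraries (1153 and 1201), and with at least 10 counts in 3 of the 6 (1107 and 1269), but not in DESeq2 (1209 and 1139). Called cell cycle genes numbered 7 to 8 in place of 13 without WT replicate 2, KO replicate 1 or KO replicate 2. A stricter interferon core (GAAAC, any 1 base, GAAA) stood in 5 of 12 IRF3 primary targets and 0.722% of all promoters. No named gene called in the main fit changed direction under these alternatives where it was tested. Named genes not called in the main fit were not called in the opposite direction by any alternative. Depth limits genes below the 1.13 to 2.25 CPM that 3 counts represent.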
